A study of Zea mays subsp. mays and Zea mays subsp. parviglumis and Zea luxurians with 126 samples.

Results

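Anthers of RIL003, a teosinte of the species Zea luxurians, were compared at 0.7 mm, when they are premeiotic, and at 1.5 mm, when they are meiotic. The comparison used the miRNA and phasiRNA cleavage tables of 5 samples, 2 at 0.7 mm and 3 at 1.5 mm, out of 63 samples with tables in the series, taken by their genotype and anther length. All 5 carry the genotype label RIL003, and the labels give no treatment, transgene or mutation for them. Each replicate came from distinct plants. The tables hold cleavage sites and no expression values, so the anther label could not be checked against marker genes. In RIL003 anthers, cuts by miR2118 in the precursors of 21-nt phasiRNAs were strong at 0.7 mm and weak but still present at 1.5 mm, and cuts by miR2275 in the precursors of 24-nt phasiRNAs were almost absent at 0.7 mm and rested on a median of 993 reads per passing site at 1.5 mm.

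Grass anthers make large numbers of phased small interfering RNAs (phasiRNAs). A long precursor RNA from a PHAS locus is cut by a 22-nt microRNA, copied into double-stranded RNA by an RNA-dependent RNA polymerase and diced into successive small RNAs in register with the first cut. In maize and rice, miR2118 starts the 21-nt class from 21-PHAS loci, and miR2275 starts the meiotic 24-nt class from 24-PHAS loci. A phasiRNA can in turn guide a cut in its own precursor (cis), in the precursor of another locus (trans) or in an ordinary transcript. In nanoPARE, the 5′ ends of RNAs are captured and sequenced, and the EndCut step of its pipeline tests the ends found at positions where a small RNA is predicted to cut.

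Several of the miRNAs named below are shown with their mature sequences, 5′ to 3′, so that a reader can compare the 7 bases of the seed (bases 2 to 8, in capitals) that each uses to find its targets. They come from the study's list of RIL003 miRNAs, in which 207 of the 211 miRNA names in the tables were found. The first starts 21-nt phasiRNAs, and the others belong to miRNA families of wide distribution in plants. For miR319d-5p, whether this arm of the precursor guides cuts could not be settled.
miR2118c, also named miR482: uUCCUAAUgccucccauuccua
miR156c: uGACAGAAgagagagagcac
miR160c: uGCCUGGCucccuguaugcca
miR167a: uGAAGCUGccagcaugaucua
miR171a: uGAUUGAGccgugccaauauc
miR394: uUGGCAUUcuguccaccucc
miR396b-5p: uCCACAGGcuuucuugaacug
miR319d-5p: aGAGCGUCcuucaguccacuc
None of these 8 shared a seed with another. The sequences listed under the plain names miR2118 and miR2275 are not shown, since they may belong to the other arm of the precursor, and whether they guided the predicted cuts could not be settled. Most miR2118 interactions below, and many of miR2275, carry these plain names, which are used as the tables give them.

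Depth was inferred from the RPM, the depth-scaled read number, that 1 read contributes in each library. The libraries at 0.7 mm held 3.2 and 4.46 megareads and those at 1.5 mm 7.31 to 8.0 megareads, so depth moved with the stage, and its part in the results was not tested. A single read was worth 0.312 and 0.224 RPM at 0.7 mm and 0.125 to 0.137 RPM at 1.5 mm. The miRNA tables listed 737 and 934 sites at 0.7 mm and 1136 to 1316 at 1.5 mm, the phasiRNA tables listed 785 and 1082 and then 1580 to 1729, and 35.7 to 48.8% of listed sites rested on 1 read or less. A site that is not listed in a library was not reported there, and whether it had no reads or was not considered cannot be told from the tables. Positions are counted within the PHAS locus or transcript, because neither genome coordinates nor gene names were used for RIL003 loci here, and the transcripts were assembled by the authors.

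On PHAS precursors, the cuts of miR2118 and of 21-nt phasiRNAs gave fewer interactions in every 1.5-mm library than in either 0.7-mm library, and those of miR2275 and of 24-nt phasiRNAs gave more. A small RNA and its target count as 1 interaction in a library where the authors' adjusted P for the pair is below 0.05. miR2118 had 78 and 103 interactions with 21-PHAS precursors at 0.7 mm and 30, 52 and 27 at 1.5 mm. miR2275 had 1 and 4 interactions with 24-PHAS precursors at 0.7 mm and 69, 73 and 71 at 1.5 mm. The libraries of the stages did not overlap in either class. In log2(interactions + 1), the change from 0.7 to 1.5 mm was −1.34 for miR2118 (90.5 ± 17.7, SD, n = 2, against 36.3 ± 13.7, n = 3, two-sided exact permutation p = 0.2, adjusted p = 0.244) and 4.51 for miR2275 (2.5 ± 2.12 against 71 ± 2, exact permutation p = 0.1, adjusted p = 0.138). The smallest p that 2 libraries against 3 allow is 0.1, so none of the 11 classes could pass 0.05. In bulk anthers, a change in the share of cells with a cut and a change in cuts per cell cannot be told apart. Without expression values, the part of precursor or miRNA abundance was not tested.

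Cis interactions of 21-nt phasiRNAs numbered 15 and 21 at 0.7 mm and 5, 7 and 4 at 1.5 mm, and their trans interactions 61 and 86 and then 23, 21 and 12. No cis interaction of a 24-nt phasiRNA was found at 0.7 mm, against 35, 42 and 38 at 1.5 mm. The paper divides 24-PHAS loci into premeiotic and meiotic ones by phasiRNA abundance. All 24-PHAS loci are pooled here, and interactions do not measure how much phasiRNA was present. Trans interactions of 24-nt phasiRNAs numbered 4 and 0 at 0.7 mm and 81, 82 and 70 at 1.5 mm. The 4 trans interactions at 0.7 mm rested on 0.0800 of a read each at the median. All 4 of these classes had separate ranges, with log2 changes of −1.59, −1.95, 5.29 and 5.13 (for each the exact permutation p was 0.1, its lower limit, and the adjusted p 0.138).

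**Figure D1:**
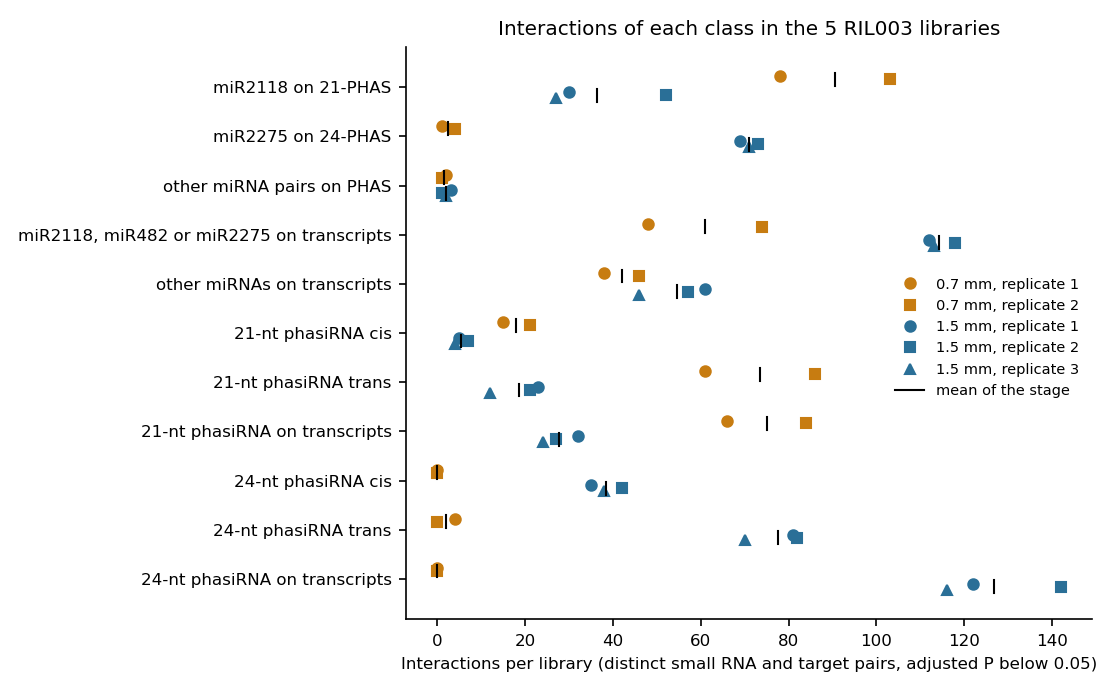
Interactions per library (horizontal axis, number of distinct small RNA and target pairs with an adjusted P below 0.05) for each of the 11 classes in the 5 RIL003 libraries, with points for libraries and a vertical bar for the mean of each stage. The miR2275 points sit at 1 and 4 for 0.7 mm and at 69 to 73 for 1.5 mm, while those of miR2118 sit at 78 and 103 and at 27 to 52.

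The miR2118 cuts in 21-PHAS precursors held far fewer reads at 1.5 mm. Of 117 sites on 116 loci that passed in any library, 93 had all 1.5-mm values below both 0.7-mm values and 0 the reverse, 25 were listed in all 5 libraries and 38 in no 1.5-mm library. The RPM summed over these sites was 427 and 661 at 0.7 mm and 31.2, 56.5 and 25.1 at 1.5 mm. The median RPM of those listed was 2.50 and 4.71 at 0.7 mm and 0.410, 0.541 and 0.50 at 1.5 mm. Passing sites therefore rested on a median of 17 reads at 0.7 mm and 5 at 1.5 mm. Some loci share sequence, and 16 of the 117 sites had the same RPM in every library as another site, so that 109 distinct profiles remained.

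Each site was also tested by limma on log2(RPM + 0.1) over all sites of the miRNA tables that were listed in at least 2 of the 5 libraries. Of 1196 such sites, 177 were higher at 1.5 mm (14.8%) and 195 lower (16.3%) at an adjusted p below 0.05, together 31.1%. Of the miR2118 sites on 21-PHAS loci, 150 of 180 passed the filter, and 98 were lower and 0 higher (limma, 123 and 0 at an unadjusted p below 0.05), with a median log2 change of −3.55 beside 0.09 over all sites tested. Sites listed in no 1.5-mm library passed the filter through 0.7 mm alone, so they could not have been higher. Over the 28 miR2118 sites listed in all 5 libraries the median was −3.0. When only sites listed in all 5 were tested, 21 of these 28 were lower and 0 higher. Calls of lower sites rested in part on 0.7-mm replicate 2: without it 31 of 93 miR2118 sites tested were lower, and without 0.7-mm replicate 1 it was 59 of 98. Dividing each library by its median ratio over sites listed in all 5 libraries shifted the median of all miRNA sites by 0.64, gave 189 higher and 106 lower sites in the miRNA tables, and left 58 miR2118 sites lower and 0 higher.

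RIL003_21PHAS_6323 was cut at position 605 with 12.2 and 11.7 RPM at 0.7 mm and 0.137, 0.270 and 0.125 RPM at 1.5 mm. Its 0.7-mm libraries held 39.0 and 52.0 reads and its 1.5-mm libraries 1 or 2, a log2 change of −5.48 ± 0.52 (SE, limma adjusted p = 0.000431). RIL003_21PHAS_23238, cut at position 608 by miR2118c, had 7.18 and 19.1 RPM at 0.7 mm and was not listed at 1.5 mm (log2 change −6.88 ± 0.66, adjusted p = 0.000442). RIL003_21PHAS_23244 at position 574, another miR2118c site, had 5.62 and 10.5 RPM and was likewise not listed at 1.5 mm. Where a stage has no listed value, the size of a log2 change depends on the added 0.1 RPM and is not a fold. The strongest miR2118 cut at 0.7 mm over both replicates, chosen after its values were seen, was in RIL003_21PHAS_2138 at position 3897, with 15 and 20.9 RPM, and it was listed in 1 library at 1.5 mm with 1.35 RPM. No site was called higher, and the one nearest to it, RIL003_21PHAS_2357 at position 657, had 1.22 and 0.125 RPM in 1.5-mm replicates 2 and 3 and was listed in no other library (limma adjusted p = 0.317).

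The miR2118 cuts found at 1.5 mm were mostly on loci also cut at 0.7 mm. By the authors' rule a pair is positive when it passes in at least 2 replicates of a stage. There were 70 positive 21-PHAS targets at 0.7 mm and 30 at 1.5 mm, of which 28 were shared, which is 40.0% of the former and 93.3% of the latter. RIL003_21PHAS_29534 at position 612, chosen after its values were seen, held 18.4 and 12.8 RPM at 0.7 mm and 0.684, 2.30 and 0.875 RPM at 1.5 mm, and passed in all 5 libraries. RIL003_21PHAS_29535 repeats this cut with identical RPM values at its position 2494. Both miR2118 names took part. The plain miR2118 name passed at 60 and 77 sites at 0.7 mm and at 24 to 42 sites at 1.5 mm, and miR2118c at 18 and 26 sites and then at 3 to 10.

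The miR2275 cuts in 24-PHAS precursors were strong at 1.5 mm and at single reads, or unlisted, at 0.7 mm. Of 79 sites on 75 loci that passed in any library, 74 had all 1.5-mm values above both 0.7-mm values and 0 the reverse, 58 were listed in no 0.7-mm library, and 37 were above 100 RPM in all 3 libraries of 1.5 mm. Their summed RPM was 1.62 and 2.01 at 0.7 mm and 12318, 16705 and 14256 at 1.5 mm. The median RPM of those listed was 0.0624 and 0.0841 at 0.7 mm and 119, 133 and 113 at 1.5 mm. The 5 sites that passed at 0.7 mm rested on at most 1 read each, and passing sites at 1.5 mm on a median of 993 reads. There were 0 positive 24-PHAS targets of miR2275 at 0.7 mm and 70 at 1.5 mm. By limma 70 of 81 sites were higher and 0 lower (71 and 0 at an unadjusted p below 0.05), with a median log2 change of 9.80, or 9.19 over the 7 sites listed in all 5 libraries. Of the 81, 61 were not listed at 0.7 mm and passed the filter through 1.5 mm alone, so they could not have been lower. The number of higher sites was 69 without 0.7-mm replicate 2 and 70 under the median-ratio scaling.

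RIL003_24PHAS_8036, cut at position 554, was not listed at 0.7 mm and held 530, 673 and 522 RPM at 1.5 mm (log2 change 12.48 ± 0.25, SE, limma adjusted p = 1.01e-06). RIL003_24PHAS_27036 at position 634 held 585, 478 and 521 RPM at 1.5 mm and was not listed at 0.7 mm. RIL003_24PHAS_7249 at position 529 held 487, 573 and 454 RPM, again with no listing at 0.7 mm. These are 3 of 5 sites that shared the lowest adjusted p of the class, taken by the size of their change, and their 1.5-mm replicates lay within 1.5-fold of each other. The highest cut of all was in RIL003_24PHAS_14201 at position 455, chosen after its values were seen, with 873, 1371 and 1369 RPM at 1.5 mm and 0.112 RPM in a single 0.7-mm library. RIL003_24PHAS_14200 repeats it at position 63 with the same values.

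**Figure D2:**
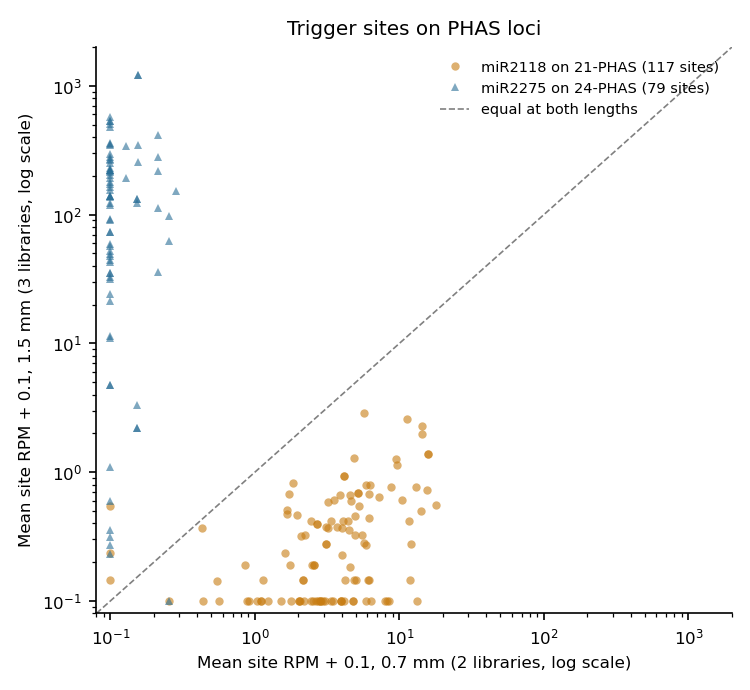
Mean RPM + 0.1 of each passing trigger site at 0.7 mm (horizontal axis, 2 libraries, log scale) and at 1.5 mm (vertical axis, 3 libraries, log scale), with 117 miR2118 sites as circles, 79 miR2275 sites as triangles and a dashed line where both stages are equal. The miR2118 circles lie below the line, apart from the 3 listed only at 1.5 mm, and the miR2275 triangles stand at the left edge, up to a mean of 1205 RPM, with 1 below the line.

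Other pairings of miRNAs with PHAS loci were rare, at 2 and 1 interactions at 0.7 mm and 3, 1 and 2 at 1.5 mm. One site stood apart. RIL003_21PHAS_2370, named for 21-nt phasiRNAs, was cut by miR2275 at position 3062 with 0 and 0.224 RPM at 0.7 mm and 53.6, 128 and 155 RPM at 1.5 mm (log2 change 9.15 ± 0.69, SE, limma adjusted p = 0.000124). The same RPM values are listed for RIL003_24PHAS_2371 at position 551, so these loci hold a single cut under both names.

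Most cuts by the trigger miRNAs in assembled transcripts had the same small RNA and RPM as a cut in a PHAS locus, and are called copies here. Positions and sequences were not compared, so at few reads unlike cuts can share an RPM and be counted as copies. miR2118, miR482 and miR2275 together had 48 and 74 interactions with transcripts at 0.7 mm and 112, 118 and 113 at 1.5 mm, a log2 change of 0.93 (exact permutation p = 0.1, its lower limit, and adjusted p = 0.138). When transcript sites with the same small RNA and the same RPM as a PHAS site of that library were left out, 0 and 0 interactions remained at 0.7 mm and 7, 4 and 6 at 1.5 mm. Of 268 transcript sites of these miRNAs that passed the filter, out of 354, 92 were higher (34.3%) and 73 lower (27.2%). Over all sites of the miRNA tables the shares were 14.8 and 16.3%. Of the 268, 94 were not listed at 0.7 mm and could not have been lower, and sites not listed at 1.5 mm could not have been higher. Without the repeats 3 were higher and 3 lower of 47. RIL003_33164_T1 at position 1899, with 585, 478 and 521 RPM at 1.5 mm, repeats RIL003_24PHAS_27036, and its isoform RIL003_33164_T2 repeats it again at position 1519. RIL003_18547_T1 at position 2251 held 488, 453 and 496 RPM at 1.5 mm and repeats RIL003_24PHAS_12489. The lower sites were copies as well, with RIL003_11169_T1 at position 1542 repeating RIL003_21PHAS_6323 and RIL003_28573_T1 at position 2299 repeating RIL003_21PHAS_23238. RIL003_22189_T1 at position 693 had 5.62 and 4.04 RPM at 0.7 mm and no listing at 1.5 mm (log2 change −5.60 ± 0.60, adjusted p = 0.000755), but its pair with miR2118 passed in 0 libraries. The transcript sites with the highest mean RPM were RIL003_20480_T7 at position 392 for miR2275, with the values of RIL003_24PHAS_14201, and RIL003_3316_T2 at position 2650 for miR2118, with those of RIL003_21PHAS_2138.

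All other miRNAs, on assembled transcripts, changed little in number. They had 38 and 46 interactions at 0.7 mm and 61, 57 and 46 at 1.5 mm (log2 change 0.37, exact permutation p = 0.3, adjusted p = 0.33), and the ranges touched at 46. Of 690 sites that passed the filter, out of 2529, 14 were higher and 24 lower at 1.5 mm, which is 2.03 and 3.48% beside 14.8 and 16.3% of all sites in the miRNA tables. This balance was not stable: without 1.5-mm replicate 1, 2 or 3 it was 114 and 28, 111 and 19 or 89 and 20, with a pseudocount of 0.01 it was 66 and 19, and under the median-ratio scaling 25 and 7. Without 0.7-mm replicate 1 or 2 it was 5 and 1 or 6 and 0, so no direction is given for the class. These cuts were small, with a median of 3 reads per passing site at 0.7 mm and 2 at 1.5 mm, and 43.3% of passing sites at 1.5 mm rested on 1 read or less. There were 10 positive transcripts of 7 assembled genes at 0.7 mm and 35 of 22 genes at 1.5 mm, of which 9 transcripts were shared.

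miR171, miR394 and, with 1 transcript, miR169 had positive targets at both stages on the same transcripts throughout. miR171, which targets GRAS genes of the HAM group in Arabidopsis, passed on the same 4 transcripts of 2 assembled genes as positive targets at each stage. Its strongest site, RIL003_24338_T2 at position 1264, held 2.19 and 0.898 RPM at 0.7 mm and 0.137, 0.406 and 0.250 RPM at 1.5 mm (log2 change −2.12 ± 0.70, limma adjusted p = 0.0721). The ranges were apart, but the site did not pass the test over all sites. It passed where fewer sites were tested, with an adjusted p of 0.0325 among sites listed in all 5 libraries, 0.0337 among sites passing in at least 2 and 0.0461 at an Allen score of at most 4. miR394, whose known target in Arabidopsis is an F-box gene, passed in all 5 libraries on RIL003_15528_T1 at position 1185, a site with an Allen score of 0, which means no mismatch penalty. It held 0.624 and 0.449 RPM at 0.7 mm and 0.547, 0.270 and 2.00 RPM at 1.5 mm (adjusted p = 0.785).

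miR160, a regulator of auxin response factor genes, cut RIL003_4701_T1 at position 1687 with 0.937 and 0.898 RPM at 0.7 mm and 0.547, 0.811 and 0.125 RPM at 1.5 mm. Its log2 change was −1.0 ± 0.78 (adjusted p = 0.368) and became 0.32 under the median-ratio scaling. miR167, another regulator of auxin response factors, was listed on RIL003_3477_T1 at position 3330. The Allen score, at most 6, was 5 there and 1 at the miR160 site. The miR167 site held 0.312 and 2.24 RPM at 0.7 mm and 0.547, 0.541 and 1.36 RPM at 1.5 mm. Its log2 change was −0.22 ± 0.92 (limma adjusted p = 0.874) and 1.17 under the median-ratio scaling, so neither miRNA gives a direction.

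A small RNA named miR169, and also miR169d-3p-like, was listed on RIL003_12015_T1 at position 1074. This site held 0.937 and 2.47 RPM at 0.7 mm and 0.684 and 0.625 RPM in 1.5-mm replicates 1 and 3 (log2 change −2.09 ± 1.10, limma adjusted p = 0.249). The miR169 family is known to target genes of NF-YA transcription factors, but the second name gives the 3p arm. Whether this arm guides cuts, or cuts such genes, could not be settled. miR165, which is known in Arabidopsis for class III HD-ZIP genes, cut RIL003_4707_T1 at position 1188 with 0.312 and 1.12 RPM at 0.7 mm and was listed once at 1.5 mm with 0.137 RPM (log2 change −2.41 ± 0.84, adjusted p = 0.0858). The values of both sites were lower at 1.5 mm in every library, but neither passed the test over all sites. The miR165 site passed among sites passing in at least 2 libraries (limma adjusted p = 0.0293) and at an Allen score of at most 4 (adjusted p = 0.0359).

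miR396, miR156 and, with 1 transcript, miR167 had positive targets at 1.5 mm alone, and miR165 had 1 at 0.7 mm alone. miR396, which targets growth-regulating factor genes, passed on 2 and 1 assembled genes at 0.7 mm and on 9, 6 and 4 at 1.5 mm, and had 0 positive transcripts at 0.7 mm and 10 of 6 genes at 1.5 mm. Its strongest site, RIL003_8385_T2 at position 482, held 0.937 and 0 RPM at 0.7 mm and 0.264, 0.270 and 0.875 RPM at 1.5 mm (log2 change 0.66 ± 1.16, adjusted p = 0.683). miR156, which targets SPL transcription factor genes, had 0 positive transcripts at 0.7 mm and 7 of 4 genes at 1.5 mm, although it passed in 8 and 5 pairs in the single 0.7-mm libraries. RIL003_31298_T1 at position 907, its strongest site, had 0.312 and 0 RPM at 0.7 mm and 0.137, 0.135 and 0.625 RPM at 1.5 mm (adjusted p = 0.572). With 2 replicates at 0.7 mm a positive pair there must pass in both, and at 1.5 mm in any 2 of 3, so the counts of positive pairs are not on equal terms.

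Of the 38 sites of other miRNAs called by limma, 36 passed the authors' test in 0 libraries. The 2 others, chosen after their values were seen, were the isoform copies RIL003_19051_T1 and RIL003_19051_T2 at position 90, with 3.01, 0.676 and 0.750 RPM at 1.5 mm and no listing at 0.7 mm, which passed in 1 library. The sites named by rule were among the 36. miR319d-5p had 2.60, 2.03 and 2.25 RPM on RIL003_35751_T1 at position 595 at 1.5 mm, with no listing at 0.7 mm (log2 change 4.57 ± 0.55, adjusted p = 0.00137), and the isoform RIL003_35751_T2 repeats these values at position 194. An unnamed miRNA of the authors' lists had 6.87 and 8.98 RPM on RIL003_11074_T1 and RIL003_11074_T2 at position 43 at 0.7 mm and no listing at 1.5 mm (log2 change −6.31 ± 0.57, adjusted p = 0.000332). The same miRNA had 2.05, 4.06 and 0.875 RPM on RIL003_6965_T1 at position 1008 at 1.5 mm alone (log2 change 4.36 ± 0.79, adjusted p = 0.00747). A further unnamed miRNA had 0.937 and 2.69 RPM on RIL003_22828_T1 at position 2800 at 0.7 mm alone (log2 change −4.09 ± 0.73, adjusted p = 0.00742). Each of these 36 is a position with 5′ ends that differed between the stages, without a significant pair of small RNA and target by EndCut.

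Among 4421 sites of the phasiRNA tables, 1437 were listed in at least 2 libraries, and by limma 117 were higher at 1.5 mm (8.14%) and 161 lower (11.2%), together 19.3%. Without 0.7-mm replicate 2 the lower sites numbered 59 and without 0.7-mm replicate 1 they numbered 98. The median-ratio scaling shifted the median of all phasiRNA sites by 0.38 and turned the counts to 144 higher and 72 lower.

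Cis cuts assigned to 21-nt phasiRNAs were found mostly at 0.7 mm, and on few reads. A passing cis site rested on a median of 2.5 reads at 0.7 mm and 1 at 1.5 mm. Of these sites 25 and 56.25% rested on 1 read or less, and every listed cis pair passed. Positive cis targets numbered 8 at 0.7 mm and 3 at 1.5 mm, and all 3 were among the 8. Of 31 cis sites 9 passed the filter, of which 5 were lower and 0 higher (limma, 6 and 0 at an unadjusted p below 0.05), and 1 was lower under the median-ratio scaling. Those not listed at 1.5 mm could not have been higher. RIL003_21PHAS_14462 at position 1107 held 1.56 and 2.69 RPM at 0.7 mm and was not listed at 1.5 mm (log2 change −4.43 ± 0.73, adjusted p = 0.00461). RIL003_21PHAS_4106 at position 1090 held 2.81 and 2.69 RPM at 0.7 mm and 0.410, 0.406 and 0.125 RPM at 1.5 mm, with ranges apart (log2 change −2.88 ± 0.63, adjusted p = 0.0166). RIL003_21PHAS_4141 at position 774 held 3.75 and 5.16 RPM and then 1.50, 0.270 and 0.125 RPM (log2 change −3.14 ± 0.85, adjusted p = 0.0383). Under the median-ratio scaling the adjusted p rose to 0.172 for the second and to 0.272 for the third, and without 0.7-mm replicate 2 to 0.0972 and 0.0542. Every listed cis site had an Allen score of 0, since a phasiRNA matches the locus it was annotated to.

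Nearly all trans cuts listed for 21-nt phasiRNAs were assigned to 1 source, RIL003_21PHAS_32455. It gave 197 of the 204 passing trans sites over the 5 libraries, 60 and 81 at 0.7 mm and 23, 21 and 12 at 1.5 mm. Of 174 trans sites 129 passed the filter, and 80 were lower and 1 higher, with 41 lower and 1 higher under the median-ratio scaling. Sites not listed at 1.5 mm could not have been higher. When only sites listed in all 5 libraries were tested, 20 of 28 trans sites were lower and 0 higher. RIL003_21PHAS_28377 at position 672 fell from 11.6 and 11.9 RPM at 0.7 mm to 0.135 RPM in 1.5-mm replicate 2 and was not listed in replicates 1 and 3 (log2 change −6.47 ± 0.65, adjusted p = 0.000285). RIL003_21PHAS_32415 at position 533 held 4.06 and 12.8 RPM at 0.7 mm and was not listed at 1.5 mm. The site called higher was in RIL003_24PHAS_27036 at position 680, assigned to a phasiRNA of RIL003_21PHAS_6561, with 1.37, 0.270 and 0.875 RPM at 1.5 mm alone (adjusted p = 0.0417). It passed the authors' test in 0 libraries and lost its call without any 1 of 4 libraries, both of 0.7 mm and 1.5-mm replicates 1 and 3.

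Cis cuts assigned to 24-nt phasiRNAs were found at 1.5 mm alone, and at low levels. Every listed cis pair passed here too, and the 0.7-mm libraries were shallower. There were 37 positive cis targets at 1.5 mm. Of 58 cis sites 37 passed the filter, all of them through 1.5 mm alone, so none could be lower. By limma 10 were called higher, and this number was 4 with a pseudocount of 1, 0 with a replicate block (11 at an unadjusted p below 0.05), 7 without either 0.7-mm replicate and 19, 19 and 18 without 1.5-mm replicates 1, 2 and 3. RIL003_24PHAS_14191 at position 939 had 2.45, 2.17 and 5.16 RPM at 1.5 mm (log2 change 4.97 ± 0.64, adjusted p = 0.00131). RIL003_24PHAS_8042 at position 807 had 0.883, 1.50 and 1.71 RPM, and RIL003_24PHAS_27036 at position 718 had 1.91, 0.946 and 1.25 RPM (adjusted p = 0.00603 for both). None of the 3 was listed at 0.7 mm. A passing cis site rested on a median of 2 reads, and 34.8% of them on 1 read or less, while the miR2275 cut in RIL003_24PHAS_27036 itself rested on 3539 reads or more.

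The strongest trans cuts assigned to 24-nt phasiRNAs lay on the miR2275 positions themselves. RIL003_24PHAS_13865 was the source of 82 of 244 passing trans sites, and all 82 were at a position that passed for miR2275 in the same library. RIL003_24PHAS_8036 at position 554, RIL003_24PHAS_27036 at 634 and RIL003_24PHAS_7249 at 529, the 3 sites with the lowest adjusted p of the class, are those miR2275 cuts with the RPM given above. Of the other 162 passing trans sites, from 30 further sources, 0 lay on a miR2275 position. The 1.5-mm trans sites off these positions had a median of 0.226 RPM and those on them 137 RPM. Of 135 trans sites 112 passed the filter, 100 of them without a listing at 0.7 mm, and 39 were higher and 0 lower (limma, 54 and 0 at an unadjusted p below 0.05). The lowest p in the lower direction belonged to RIL003_24PHAS_18100 at position 671, with 0.0250 RPM in 0.7-mm replicate 1 and 0.00957 RPM in 1.5-mm replicate 1 alone (limma adjusted p = 0.648).

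The same overlap held for 21-nt phasiRNAs. Of the 197 trans sites from RIL003_21PHAS_32455, 162 (82.2%) were at a position passing for miR2118 in that library, against 0 of the 7 from other sources. Over the libraries of a stage, 115 of 148 passing trans sites at 0.7 mm and 47 of 56 at 1.5 mm lay on a miR2118 position. RIL003_21PHAS_6323 at position 605 is an example, listed with the same 12.2 and 11.7 RPM at 0.7 mm in both tables. Where such positions were left out, 13 and 20 trans interactions of 21-nt phasiRNAs remained at 0.7 mm and 6, 1 and 2 at 1.5 mm, and of 24-nt phasiRNAs 4 and 0 and then 57, 56 and 45. The reads do not tell which small RNA guided a cut that both could guide.

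**Figure D3:**
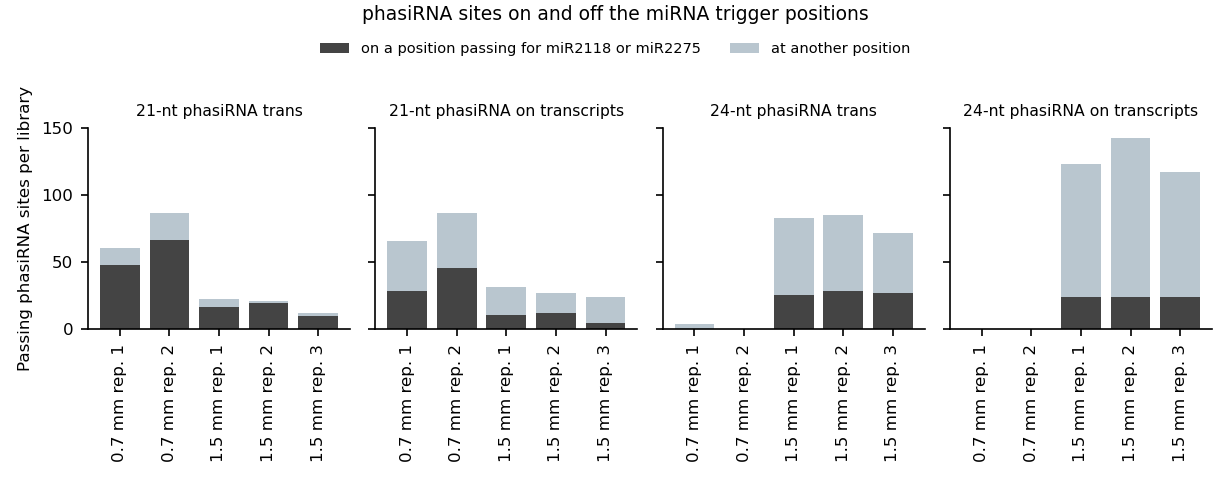
Passing phasiRNA sites per library (vertical axis, number of sites) on a position that also passed for miR2118 or miR2275 in that library (dark) or at another position (light), in 4 panels by phasiRNA length and target, with 1 bar per library. Of the trans sites of 21-nt phasiRNAs at 0.7 mm, 115 of 148 were dark, and of those of 24-nt phasiRNAs at 1.5 mm, 82 of 240 were.

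On assembled transcripts, 21-nt phasiRNAs had 66 and 84 interactions at 0.7 mm and 32, 27 and 24 at 1.5 mm (log2 change −1.41, exact permutation p = 0.1, its lower limit, and adjusted p = 0.138). Most of these matched a PHAS site of the same library in small RNA and RPM. Without the copies, 12 and 10 interactions were left at 0.7 mm and 13, 9 and 16 at 1.5 mm, and the log2 change became 0.16 (exact permutation p = 0.7). RIL003_11169_T1 at position 1542, RIL003_7780_T1 at 199 and its isoform RIL003_7780_T2 at 147 were called lower and repeat trans sites given above. RIL003_9972_T1 at position 936 and RIL003_9972_T2 at 939 held 3.80, 5.79 and 4.93 RPM at 1.5 mm alone for a phasiRNA of RIL003_21PHAS_14403 (log2 change 5.61 ± 0.55, adjusted p = 0.000239). RIL003_6965_T1 at position 1385 held 4.79, 5.81 and 3 RPM at 1.5 mm alone (log2 change 5.48 ± 0.58, adjusted p = 0.000367). The pairs on RIL003_9972 and RIL003_6965 passed the authors' test in 0 libraries.

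The 24-nt phasiRNAs had 0 and 0 interactions with transcripts at 0.7 mm and 122, 142 and 116 at 1.5 mm, and without the copies of PHAS sites 6, 14 and 5. Their 123 positive pairs at 1.5 mm fell on 69 transcripts of 35 assembled genes. RIL003_13119_T1 at position 1149 held 259, 280 and 250 RPM at 1.5 mm (log2 change 11.36 ± 0.31, adjusted p = 7.54e-08), at a site assigned to RIL003_24PHAS_13865. All 72 passing transcript sites from that source were at miR2275 positions. Among 408 transcript sites 212 passed the filter, 174 of them without a listing at 0.7 mm, with 53 higher and 0 lower (77 and 0 at an unadjusted p below 0.05), and after the copies were left out 0 of 51 were called (limma, 2 higher at an unadjusted p below 0.05).

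The 24-nt cis cuts lay downstream of the trigger cut, and most were at 1 remainder of the phasiRNA length. This was noticed in the data and is given as a description. EndCut tests only positions where a small RNA is predicted to cut. Since phasiRNAs are diced in register with the trigger cut, direction and remainder may come from the predicted positions, and no conclusion is drawn from them. Of the loci with exactly 1 passing miR2275 site, 26 had a 24-nt cis site, and all 26 cis sites were downstream of the trigger, 36 to 398 nt away with a median of 252. The remainder of that distance after division by 24 was 12 for 18 of the 26. In RIL003_24PHAS_27036, for example, the miR2275 cut at 634 and the cis cut at 718 were 84 nt apart, and in RIL003_24PHAS_14434 the cuts at 600 and 756 were 156 nt apart. The latter locus had 170, 431 and 483 RPM at its trigger and 0.273, 0.270 and 0.250 RPM at its cis site at 1.5 mm. For 21-nt phasiRNAs, 9 cis sites were on loci with 1 miR2118 site. The cis site of RIL003_21PHAS_32455 at position 2076 coincided with the trigger, and 7 of the other 8 had a remainder of 9 after division by 21. RIL003_21PHAS_4141, with the trigger at 597 and the cis site at 774, 177 nt apart, is among these 7.

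**Figure D4:**
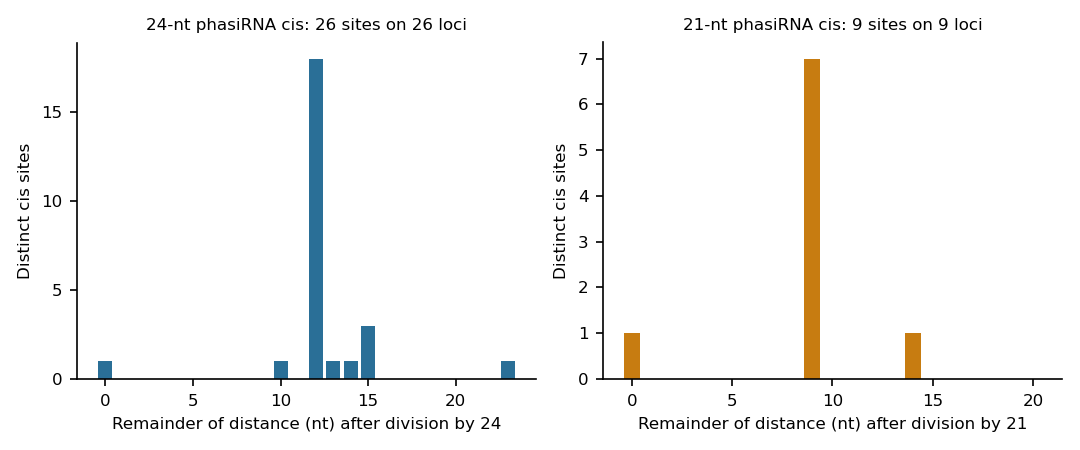
Number of distinct cis sites (vertical axis) by the remainder of their distance from the trigger cut in nt after division by the phasiRNA length (horizontal axis), for 26 24-nt cis sites with miR2275 as the trigger (left) and 9 21-nt cis sites with miR2118 (right), on loci with 1 trigger site. The tallest bars are 18 sites at a remainder of 12 and 7 sites at a remainder of 9. Cuts could be found only at positions where a phasiRNA was predicted to cut.

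The trans sites of 24-nt phasiRNAs on such loci were at the trigger position in 23 of 56 cases. All 33 others were downstream of it, with remainders of 12 in 12 cases and of 23 in 11. These too could be found only at predicted positions. For 21-nt phasiRNAs, 73 of 76 trans sites were at the trigger position.

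The number of listed sites per target moved with the locus class. There were 181 21-PHAS loci listed in the miRNA tables, of which 49 had fewer sites in every 1.5-mm library than in either 0.7-mm library and 0 had more. Of 91 24-PHAS loci, 54 had more and 0 fewer, and of 2665 transcripts 126 had more and 56 fewer. The background over all 2937 targets was 6.13% with more and 3.58% with fewer. For phasiRNAs, 38 of 164 21-PHAS loci had fewer and 0 more, 52 of 113 24-PHAS loci had more and 0 fewer, and 151 of 3606 transcripts had more and 41 fewer, against 5.23 and 2.03% of all 3883 targets. Most targets had a single listed site in a library, 91.7 to 98.2% of them, so these counts mainly say whether a target was listed at all. Listed miR2118 sites numbered 149 and 160 at 0.7 mm and 50 to 87 at 1.5 mm, and those of other miRNAs on transcripts 428 and 598 and then 780 to 944 (each exact permutation p = 0.1, its lower limit, and adjusted p = 0.11). Listed sites of 21-nt phasiRNAs on transcripts went from 613 and 859 to 1165 to 1255, the opposite direction to their interactions.

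The stage change of RIL003 was set beside that of TIL11, a teosinte of Zea mays subsp. parviglumis with 3 libraries at each of the same lengths and 5.33 to 8.21 megareads per library. PHAS loci and miRNAs were annotated separately in each variety, and the tables were made separately. miR2118 interactions in TIL11 went from 108, 94 and 129 at 0.7 mm to 3, 5 and 5 at 1.5 mm. RIL003 thus had more of them at 1.5 mm, and its fall was smaller, with a log2 change of −1.34 against −4.40 in TIL11. The difference of these changes was 3.06 (two-sided exact permutation of varieties within each length, p = 0.02, adjusted over 7 classes p = 0.0467). Cis interactions of 21-nt phasiRNAs in TIL11 went from 26, 20 and 31 to 0, 1 and 1. Their log2 change was −4.05 in TIL11 and −1.59 in RIL003, a difference of 2.45 between the varieties (p = 0.015, adjusted p = 0.0467, exact permutation). Cis interactions of 24-nt phasiRNAs in TIL11 went from 2, 1 and 2 to 26, 22 and 23, against 0 to 35 to 42 in RIL003, differing by 2.06 (adjusted p = 0.035, from an exact permutation p of 0.005, the lowest it can give). This difference rests in part on the 0.7-mm counts of 0 to 2, where the added 1 weighs most in the log. In miR2275 interactions TIL11 went from 0, 5 and 5 to 66, 73 and 73, and the difference of 0.07 did not pass the test (exact permutation p = 0.94, adjusted p = 0.94). The differences in trans interactions were 2.22 for 21-nt phasiRNAs (adjusted p = 0.21) and 1.38 for 24-nt phasiRNAs (adjusted p = 0.642), and that in other miRNAs on transcripts was 0.74 (adjusted p = 0.462), by the same exact permutation. Without 0.7-mm replicate 1 of RIL003, or without replicate 1 or 3 of TIL11 at 0.7 mm, the first 3 differences stayed at 1.97 or more on the log2 scale, with adjusted p of 0.0778 or 0.0875.

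**Figure D5:**
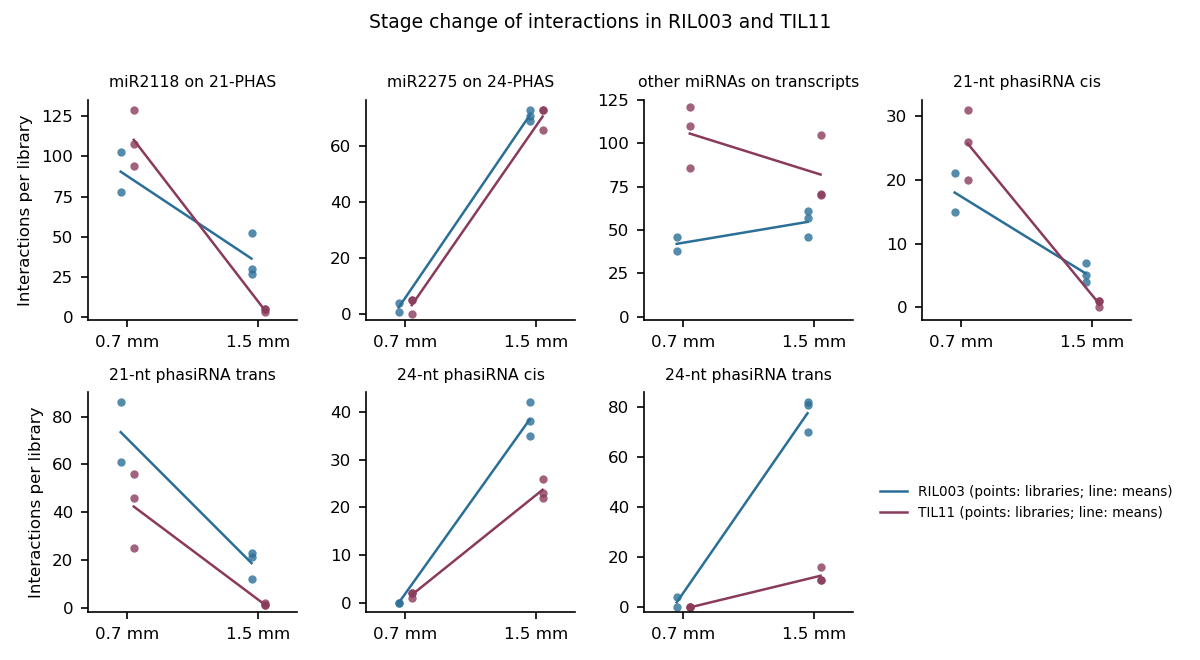
Interactions per library (vertical axis) at 0.7 and 1.5 mm in RIL003 and TIL11 for 7 classes, with points for libraries and lines joining the means of the stages. In the miR2118 panel the 1.5-mm libraries of RIL003 lie at 27 to 52 and those of TIL11 at 3 to 5, while in the miR2275 panel both varieties end at 66 to 73.

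At the shorter length of 0.4 mm, the 3 RIL003 libraries had 95, 89 and 70 miR2118 interactions with 21-PHAS precursors and 26, 0 and 7 miR2275 interactions with 24-PHAS precursors. The former lie in the range of the 0.7-mm libraries or just below it, and the latter reach above the 0.7-mm values of 1 and 4 in replicates 1 and 3.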

How the data were processed

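Cleavage tables of nanoPARE libraries were read for RIL003 at 0.7 mm (2 replicates) and 1.5 mm (3), with RIL003 at 0.4 mm and TIL11 for comparison. The study's methods give distinct plants for each replicate and libraries from small amounts of total RNA. The authors assembled the RIL003 anther transcriptome from RNA-seq and nanoPARE reads and ran the nanoPARE pipeline, whose EndCut step gave the deposited values: the RPM of a cut site, an Allen score (mismatch penalty, at most 6), a fold change, not used here, and an adjusted p-value. The aligner's settings for these tables are not given in the sources used here. Depth was not listed and was taken from the commonest RPM value, read as 1 read, under which 77.4 to 83.4% of RIL003 values were whole reads within 0.01 read. Intervals for single sites were not given, because these reads carry no molecular identifiers.

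Interactions were counted per library in 11 classes and compared as log2(count + 1) by two-sided exact permutation tests (10 arrangements) with Benjamini-Hochberg adjustment. Site RPM was compared by limma 3.58.1 in R 4.3.3 with a mean-variance trend, on log2(RPM + 0.1), for sites listed in at least 2 of 5 libraries, with an unlisted site entered as 0 and p-values adjusted over each kind of table. The difference from TIL11 used 200 arrangements of varieties within length. Named sites were, per class and direction, the 3 with the lowest adjusted p among those called with ranges apart, or where none was called the 1 with the lowest p, besides the transcript site of highest mean RPM per miRNA family with a positive pair, and per phasiRNA class the source locus with the most positive targets. Others are said to be chosen after their values were seen. The limma step was also run on simulated data with normal noise. Those data did not copy unlisted sites entered as 0, so no conclusion is drawn from them. Alternatives included other pseudocounts (1 and 0.01), filters, a median-ratio scaling, a replicate block and the omission of each library in turn. Treating unlisted sites as missing, merging isoform copies, counting genes and leaving out trigger positions were chosen after seeing the data. The members, classes and lists were chosen with earlier results of these data known. Python 3.11.15, numpy 2.4.6 and pandas 2.3.3 were used.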

Additional observations from a re-analysis of the deposited data

Results flagged for a closer look

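In 3 of 7 classes the change from 0.7 to 1.5 mm in RIL003 differed from that in TIL11 by a test of the difference itself (exact permutation, adjusted over 7 classes). The difference, RIL003 minus TIL11 in log2(interactions + 1), was 3.06 for miR2118 on 21-PHAS loci (adjusted p = 0.0467), where all 3 RIL003 libraries at 1.5 mm, with 27 to 52 interactions, lay above all 3 of TIL11, with 3 to 5. It was 2.45 for cis cuts of 21-nt phasiRNAs (adjusted p = 0.0467), with 4 to 7 interactions at 1.5 mm in RIL003 and 0 to 1 in TIL11. Those of RIL003 at 1.5 mm rested on a median of 1 read. For cis cuts of 24-nt phasiRNAs it was 2.06 (adjusted p = 0.035), with 35 to 42 interactions at 1.5 mm in RIL003 and 22 to 26 in TIL11, and with 0 and 1 to 2 at 0.7 mm. This value rests in part on those 0.7-mm counts, where the added 1 weighs most in the log. At 0.7 mm the RIL003 libraries held 3.2 and 4.46 megareads and those of TIL11 5.51 to 8.21. The part of depth was not tested. Loci and small RNAs were annotated separately in each variety, and the part this had in the differences was not tested. Groups of 2 and 3 libraries were too small for a search for single outlying libraries.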

How the results depend on the processing

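The direction of the interactions held in 158 of 164 class and setting combinations, turned in 4 and was lost, at a change of 0, in 2 (21-nt cis cuts as shares, where every listed pair passes, and other miRNAs on PHAS loci without 1.5-mm replicate 1). With shares of listed pairs in place of counts, the change was −56.2 percentage points for other miRNAs on PHAS loci and −2.0 for other miRNAs on transcripts, and leaving out 1 library gave −0.057 to 0.53 on the log2 scale for the former. Without copies of PHAS sites, 21-nt phasiRNAs on transcripts changed by 0.16. In the comparison with TIL11, the difference for miR2118 was 2.44 at P below 0.01, 2.79 at an Allen score of at most 4, 51.8 interactions without the log and 33.3 points as shares, and 2.78 to 3.26 without single libraries. That for 21-nt cis cuts was 2.45 at P below 0.01 and at the stricter Allen score, 12.3 without the log, 33.3 as shares and 2.12 to 2.68 without single libraries. That for 24-nt cis cuts was 16.3 without the log and 1.97 to 2.26 without single libraries. None of these values for other thresholds, scores or scales passed 0.05, nor did any of the 3 differences without replicate 1 of RIL003 or replicates 1 or 3 of TIL11 at 0.7 mm. Differences reversed for miR2275 at −0.14 (stricter Allen score) and −0.59 to 0.93 (single libraries left out), for 21-nt trans cuts at −13.8 (no log) and −0.58 (shares), and for other miRNAs at −0.62 (shares). Calls of single sites moved with the setting. Among miRNA sites, 16 were higher and 40 lower among sites listed in all 5 libraries, 110 lower among sites passing in at least 2, 104 and 87 at the stricter Allen score, 106 lower under the scaling, 87 and 100 without copies, and 161 to 294 higher and 45 to 175 lower without single libraries. Among phasiRNA sites, 70 were higher with a pseudocount of 1 and 251 with 0.01, 12 and 37 among sites listed in all 5, 102 lower among passing sites, 63 lower at the stricter Allen score, 72 lower under the scaling, 53 and 83 without copies, and 84 to 321 and 59 to 138 without single libraries. Without 0.7-mm replicate 2 the lower calls were 45 and 59 in the 2 kinds of table, and without 1.5-mm replicate 1 the higher calls were 294 and 321. Deviations of same-numbered libraries had correlations of −0.049 to 0.029. With 2 libraries at 0.7 mm their deviations mirror each other, so this cannot tell whether same-numbered libraries share more than a number. With the replicate block, limma called 157 higher and 54 lower miRNA sites, and 43 higher and 0 lower phasiRNA sites (181 and 163 at an unadjusted p below 0.05). Lower calls under the block were 31 for miR2118 on 21-PHAS loci (98 in the main fit) and 0 for 21-nt trans cuts (80 in the main fit). At an unadjusted p below 0.05 they were 101 and 77. By class, higher calls without 1.5-mm replicates 1, 2 and 3 were 148, 112 and 113 for 21-nt phasiRNAs on transcripts (14 with all), 58, 54 and 57 for 24-nt trans cuts (39 with all) and 91, 83 and 85 for 24-nt phasiRNAs on transcripts (53 with all), and under the block they were 0 (60 at an unadjusted p below 0.05), 22 and 21. Of 43 named called sites 17 lost their call under the block and 3 under the scaling. Single sites reversed to −0.37 for RIL003_15528_T1 (block, and −0.37 to 0.89 without single libraries), −0.27 for RIL003_31298_T1 (unlisted taken as missing, and −0.27 to 1.78 without single libraries), 1.17 for RIL003_3477_T1 (scaling, and −1.47 to 1.04 without single libraries), 0.32 for RIL003_4701_T1 (scaling) and −1.03 for RIL003_8385_T2 (without 0.7-mm replicate 2, and up to 2.35 without another library). The cause of these changes was not tested. Shallower 0.7-mm libraries limit what can be said of cuts of 1 or 2 reads.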
